A study of Homo sapiens with 4 samples.

Results

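The genes described are 28 genes of sterol and fatty acid synthesis, 21 in the sterol arm and 7 in the fatty acid arm, out of 64252 gene IDs in a count table from SK-N-BE(2) cells. They were chosen by name, as enzymes of both pathways, genes that regulate them and a cholesterol carrier, and each matched 1 Ensembl gene ID. SK-N-BE(2) is an established human neuroblastoma line with an amplified MYCN gene. In 1 group the cells had received a short hairpin RNA against TTC8 (shTTC8), which encodes a subunit of the BBSome, the coat complex that moves membrane proteins through the primary cilium. In the other group the cells had received a scramble hairpin (shScb). RNA was sequenced from 2 libraries a group. No label names separate cultures, so the p-values reflect the scatter of these samples alone, which may be technical. How many hairpins were used, and whether the cells were 1 clone, is not given in those labels. Effects of lowering TTC8 and off-target effects of a hairpin cannot be told apart.

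Cholesterol is built from acetyl-CoA through mevalonate, isoprenoid diphosphates and squalene to lanosterol, which is then trimmed and reduced. Fatty acids are built from acetyl-CoA and malonyl-CoA on the fatty acid synthase and are then elongated and desaturated in the endoplasmic reticulum. Both arms are switched on by the SREBP transcription factors, encoded by SREBF2 and SREBF1, whose precursors the INSIG proteins hold in the endoplasmic reticulum when sterols are plentiful. Liver X receptors (LXR), which sense oxysterols, are a further input to several fatty acid genes, SCD and SREBF1 among them.

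The libraries held 38284663 and 40863047 gene counts in shTTC8 and 51168727 and 55331449 in shScb. TTC8 stood at 29.1 and 30.6 CPM (counts scaled to a common library size with TMM factors) in the shTTC8 libraries, against 196 and 191 CPM in the shScb libraries. Sympathetic markers of the line were present, with 2 of the 8 examined higher and 5 lower in shTTC8 by edgeR's test, and they averaged between 122 CPM (ISL1) and 3766 CPM (MYCN) in shTTC8 and between 101 and 5738 CPM in shScb. Of 9 markers of fibroblasts, endothelium, blood cells and epithelium, 7 were lower in shTTC8 by edgeR's test, and PECAM1 had no count in any library. In each of the 2 marker lists 87.5% of the tested genes were called. Of all tested genes 31.9% were called, 15.2% higher and 16.7% lower. The summed level of the 9 markers of other cell types was 52.6 and 54.1 CPM in shTTC8, against 268 and 256 CPM in shScb. Most of the shScb sum was LUM, at 28.6 and 31.2 CPM in shTTC8 and 191 and 180 CPM in shScb. Transcripts of the mitochondrial genome took 7.61% and 7.70% of the counts in shTTC8 and 8.94% and 8.27% in shScb. The part of these marker and mitochondrial differences in the results on lipid genes was not tested. In bulk RNA, fewer cells of a type and less RNA per cell cannot be told apart.

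SREBPs bind promoters together with NF-Y, whose box reads CCAAT, and with Sp1. Promoters are shown for SCD, INSIG1 and STARD4, which had the largest log2 fold changes of the 28 genes, and for SREBF2, the 1 gene whose window held the sterol response element searched for. Each line gives the 250 bases before the RefSeq transcription start (GRCh38.p14), 5′ to 3′ on the strand of the gene. Capitals mark CCAAT on either strand and, in SREBF2 alone, the sterol response element TCACNCCAC. Other forms of this element were not searched for and are not marked. The windows are chr10:100346983-100347232 (plus strand) for SCD, chr7:155297628-155297877 (plus strand) for INSIG1, chr5:111512536-111512785 (minus strand) for STARD4 and chr22:41832855-41833104 (plus strand) for SREBF2.
SCD: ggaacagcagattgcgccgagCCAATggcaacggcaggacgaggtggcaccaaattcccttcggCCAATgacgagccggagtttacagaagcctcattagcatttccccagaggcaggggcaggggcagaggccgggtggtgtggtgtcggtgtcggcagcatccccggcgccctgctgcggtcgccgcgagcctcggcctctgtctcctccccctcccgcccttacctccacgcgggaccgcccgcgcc
INSIG1: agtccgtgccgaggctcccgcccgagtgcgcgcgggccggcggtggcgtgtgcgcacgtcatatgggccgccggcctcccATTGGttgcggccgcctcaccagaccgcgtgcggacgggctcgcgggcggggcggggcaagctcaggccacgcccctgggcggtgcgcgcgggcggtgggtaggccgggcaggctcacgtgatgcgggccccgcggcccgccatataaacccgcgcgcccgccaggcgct
STARD4: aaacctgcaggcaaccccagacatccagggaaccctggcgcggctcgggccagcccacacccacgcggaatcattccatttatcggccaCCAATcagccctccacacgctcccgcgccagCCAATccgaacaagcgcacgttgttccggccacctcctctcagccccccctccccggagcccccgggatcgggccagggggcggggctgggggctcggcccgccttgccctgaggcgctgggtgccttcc
SREBF2: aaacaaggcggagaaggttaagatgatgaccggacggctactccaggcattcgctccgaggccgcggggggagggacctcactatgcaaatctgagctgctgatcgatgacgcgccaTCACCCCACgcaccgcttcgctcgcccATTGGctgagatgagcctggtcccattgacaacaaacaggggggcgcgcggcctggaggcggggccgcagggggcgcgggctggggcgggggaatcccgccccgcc

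RefSeq windows from 250 bases before to 50 after the start were matched for 24 of the 28 genes; ACAT2, FDFT1, SQLE and FASN were not matched. A CCAAT box on either strand lay in a window of 19 of the 24 genes (79.2%), against 39.7% of all 27305 genes with a window. The Sp1 box GGGCGG, on either strand, lay in 23 of them (95.8%), against 48.3% of all genes. The E-box CACGTG lay in INSIG1, LSS and SC5D (12.5%), against 8.77% of all genes. TCACNCCAC on either strand lay in SREBF2 (4.17%), against 1.39% of all genes. No other form of the element was searched for, so windows without this match cannot be read as lacking it. All genes with a window were counted here whatever their type or expression, whereas the 24 are expressed and protein coding. Shares among expressed protein-coding genes were not computed, so these gaps may not be particular to the 24. In the windows of the 24 genes 0 matches of different motifs shared a base, and a gene with several starts counted once if any window matched. SCD, which was lower in shTTC8, and STARD4, which was higher, each held a pair of CCAAT boxes, and INSIG1, which was lower, held 1.

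The libraries with lowered TTC8 were set against the scramble control to see how far each transcript of both pathways differed. Among the 28 genes, SCD, STARD4 and INSIG1 had the largest log2 fold changes in absolute value, followed by LSS. The desaturase gene SCD was lower by a factor of 0.499, INSIG1 was lower and STARD4 was higher. Of the 18 enzyme genes of cholesterol synthesis, LSS, HMGCS1 and SQLE were called lower and PMVK higher. The other 14 were not called, with log2 fold changes between -0.17 and 0.18. All 28 genes passed the low-count filter. By edgeR's quasi-likelihood test, at a Benjamini-Hochberg adjusted p under 0.05 over 19610 tested genes, 3 were higher and 7 were lower in shTTC8. Of all tested genes 31.9% were called, 15.2% higher and 16.7% lower, and of protein-coding genes 39.2%. The 28 genes are all well expressed and protein coding, and of the 9488 protein-coding genes with a mean at or above that of the lowest of the 28, 46.3% were called. The 35.7% of the 28 genes that were called lies between these background shares. The median log2 fold change of the 28 was -0.06, against 0.004 over all tested genes and -0.004 over those 9488 genes. The median absolute value was 0.16, against 0.27 over all tested genes and 0.20 over the 9488. Both shTTC8 libraries lay above both shScb libraries for 7 of the 28 genes and below them for 11, together a share near the 65.5% of all tested genes whose groups did not overlap. Of the 9488 genes, 3569 lay above, 3654 lay below and 2265 overlapped, so the share without overlap was larger there than among the 28. With library size as the only scaling the split was 5 higher and 6 lower, without shScb replicate 2 it was 6 higher and 8 lower, and with an offset for GC content and length it was 2 higher and 10 lower.

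**Figure D1:**
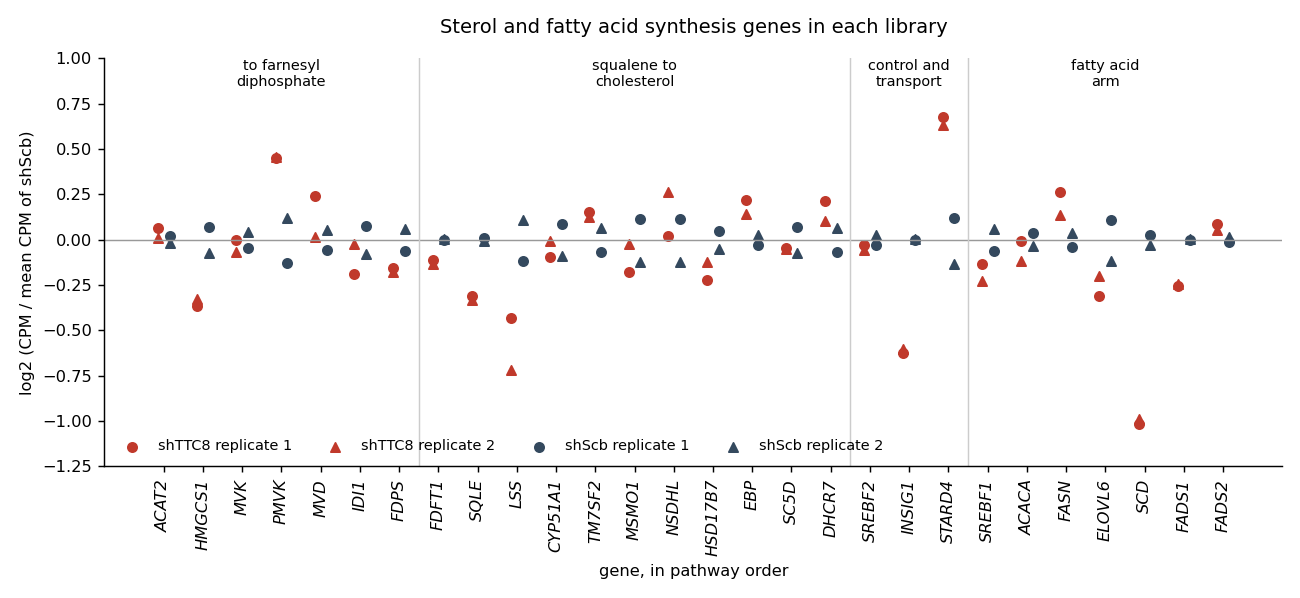
Level of each of the 28 genes in each library, as log2 of its CPM over the mean CPM of the 2 shScb libraries, in pathway order from left to right. Red symbols are shTTC8 and dark symbols shScb, circles are replicate 1 and triangles replicate 2. By the mean of the 2 shTTC8 libraries SCD and STARD4 stand farthest from 0, although LSS in shTTC8 replicate 2 lies farther from 0 than STARD4. FADS1, SQLE and INSIG1 have replicates that nearly coincide in both groups.

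The first steps, from acetyl-CoA to farnesyl diphosphate, held 7 genes, of which PMVK was higher, HMGCS1 was lower and 5 were not called. HMGCS1 encodes the cytosolic synthase that makes HMG-CoA, the substrate from which mevalonate is formed. It had 105 and 108 CPM in the shTTC8 libraries and 142 and 129 CPM in the shScb libraries. Both shTTC8 libraries were below both shScb libraries, and HMGCS1 fell by 0.35 on the log2 scale (SE 0.06, edgeR adjusted p = 7.93e-04). PMVK, the phosphomevalonate kinase gene, had 51.9 and 52.0 CPM in shTTC8 and 34.7 and 41.2 CPM in shScb. PMVK rose by 0.45 on the log2 scale (SE 0.09, edgeR adjusted p = 0.00109), with no overlap between the groups although the shScb libraries lay 0.25 apart on that scale. HMGCS1 and PMVK thus moved in opposite directions within the mevalonate steps, and each kept its call in all 13 alternative fits.

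The other 5 genes of these steps were not called. ACAT2, which joins acetyl-CoA units at the entry of the pathway, had 69.0 and 66.4 CPM in shTTC8 and 66.8 and 65.1 CPM in shScb. MVK, the mevalonate kinase gene, had 34.8 and 33.2 CPM in shTTC8 and 33.7 and 35.9 CPM in shScb. In both genes the groups overlapped, and both share exonic positions with a neighbour on the opposite strand, TCP1 for ACAT2 and MMAB for MVK, that had 529.5% and 147% of their counts. The library kit named in the labels marks no strand, so reads from these shared positions may not be assignable to 1 gene. MVD, the mevalonate diphosphate decarboxylase gene, had 83.5 and 71.6 CPM in shTTC8 and 68.1 and 73.4 CPM in shScb. IDI1, which interconverts the isoprenoid diphosphates, had 42.9 and 48.1 CPM in shTTC8 and 51.5 and 46.3 CPM in shScb. The groups overlapped in both of these as well. FDPS, the farnesyl diphosphate synthase gene, had 148 and 146 CPM in shTTC8 and 158 and 172 CPM in shScb. Its groups did not overlap, yet at -0.17 on the log2 scale (SE 0.06) it missed the threshold with an edgeR adjusted p = 0.0513, and it passed it in 4 of 13 alternatives, over which its adjusted p ran between 4.86e-04 and 0.282.

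The steps from squalene to cholesterol held 11 genes, of which SQLE and LSS were lower and 9 were not called. The 18.2% called lies below the 31.9% of all tested genes and the 46.3% of protein-coding genes as well expressed as the 28. Without shScb replicate 2 the count was 2 higher and 3 lower, with EBP and DHCR7 added as higher and MSMO1 as lower. SQLE encodes squalene epoxidase, the oxygen-dependent step that follows squalene. It had 106 and 104 CPM in shTTC8 and 132 and 131 CPM in shScb. The replicates lay 0.02 apart on the log2 scale in each group, and SQLE fell by 0.32 (SE 0.06, edgeR adjusted p = 7.17e-04). LSS encodes the lanosterol synthase that closes the sterol rings. It had 28.1 and 23.1 CPM in shTTC8 and 35.0 and 40.9 CPM in shScb, with 0.28 between the shTTC8 libraries and 0.22 between the shScb libraries on the log2 scale. LSS fell by 0.57 (SE 0.11, edgeR adjusted p = 0.00160), the largest fall among the enzymes of the sterol arm, and its groups did not overlap. SQLE and LSS catalyse consecutive steps and each kept its call in all 13 alternative fits.

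FDFT1, the squalene synthase gene just upstream of SQLE, had 217 and 213 CPM in shTTC8 and 233 and 234 CPM in shScb. Its groups did not overlap, and it was not called at -0.12 on the log2 scale (SE 0.06, edgeR adjusted p = 0.131). DHCR7, the reductase of the final step of one branch, had 122 and 112 CPM in shTTC8 and 99.8 and 109.8 CPM in shScb. EBP, the sterol isomerase gene, had 58.5 and 55.4 CPM in shTTC8 and 49.3 and 51.2 CPM in shScb. TM7SF2, a sterol reductase gene, had 29.7 and 29.1 CPM in shTTC8 and 25.5 and 27.97 CPM in shScb. In these 3 genes both shTTC8 libraries lay above both shScb libraries, at 0.16 for DHCR7, 0.18 for EBP and 0.14 for TM7SF2 on the log2 scale, and none was called (edgeR adjusted p = 0.0890, 0.0690 and 0.263). DHCR7 and EBP were called higher without shScb replicate 2 (0.23 and 0.21) and with library size as the only scaling (0.20 and 0.22), and over all alternatives the adjusted p ran between 0.00253 and 0.545 for DHCR7 and between 0.0276 and 0.425 for EBP. Across all genes 32.5% of those tested had both shTTC8 libraries above both shScb libraries and 32.9% had them below, so such a gap by itself is common here. TM7SF2 also shares 16 exonic bases with VPS51 on the same strand, which had 809% of its counts.

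Among the demethylation genes the groups overlapped for CYP51A1, MSMO1 and NSDHL, but not for HSD17B7. CYP51A1, the lanosterol demethylase gene, had 64.4 and 68.6 CPM in shTTC8 and 73.1 and 64.8 CPM in shScb. MSMO1, the methylsterol monooxygenase gene, had 51.1 and 57.0 CPM in shTTC8 and 62.6 and 53.1 CPM in shScb. NSDHL, the dehydrogenase of the same demethylation, had 23.1 and 27.3 CPM in shTTC8 and 24.7 and 20.9 CPM in shScb. These 3 genes were not called, although MSMO1 was called lower without shScb replicate 2 (-0.21) and NSDHL higher without shScb replicate 1 (0.27). SC5D, the sterol desaturase gene, had 58.2 and 57.9 CPM in shTTC8 and 63.0 and 57.1 CPM in shScb, and its groups overlapped. HSD17B7, the ketoreductase gene, had 9.68 and 10.4 CPM in shTTC8 and 11.7 and 10.9 CPM in shScb. Both shTTC8 libraries were below both shScb libraries, yet HSD17B7 was not called (log2 fold change -0.17, SE 0.12), and its pseudogene HSD17B7P2 had 8.15% of its counts. Summed over all 21 genes, the sterol arm stood at 1939 and 1908 CPM in shTTC8 and 1977 and 1975 CPM in shScb, a difference of -2.64%. Both shTTC8 sums were below both shScb sums, and the exact two-sided permutation test gave p = 0.333, the smallest that 2 against 2 libraries allow. Called genes of opposite direction offset each other in this sum, STARD4 and PMVK as higher and INSIG1, HMGCS1, SQLE and LSS as lower. The 18 enzyme genes alone had 1303 and 1284 CPM in shTTC8 and 1365 CPM in each shScb library, a difference of -5.24%. The same permutation test again gave p = 0.333.

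The control and transport genes of the sterol arm differed in direction. SREBF2, which encodes the SREBP that drives cholesterol genes, had 407 and 399 CPM in shTTC8 and 407 and 424 CPM in shScb, and its groups overlapped. INSIG1, which retains the SREBP precursors and is itself an SREBP target, had 57.0 and 57.9 CPM in shTTC8 and 87.6 and 88.0 CPM in shScb. INSIG1 (ENSG00000186480, chromosome 7, 155297776 to 155310235 in GRCh38) fell by 0.61 on the log2 scale (SE 0.06, edgeR adjusted p = 4.67e-06). Its replicates lay 0.02 apart on that scale in shTTC8 and closer still in shScb, far inside the gap between the groups. STARD4, a carrier of cholesterol between membranes and also an SREBP target, had 172 and 167 CPM in shTTC8 and 117 and 98.4 CPM in shScb. STARD4 (ENSG00000164211, chromosome 5, 111496033 to 111512590) rose by 0.65 (SE 0.08, edgeR adjusted p = 4.31e-05). It shares 124 exonic bases with the antisense gene STARD4-AS1, which had 21.98% of its counts and a log2 fold change of -0.003 (edgeR adjusted p = 0.985). INSIG1 and STARD4 kept their calls in all 13 alternatives, between -0.64 and -0.57 for INSIG1 and between 0.53 and 0.82 for STARD4. Per kilobase of exons, STARD4 stood at 1.94 and 1.85 times the level of INSIG1 in the shTTC8 libraries, against 0.860 and 0.718 times in the shScb libraries, so that STARD4 was the higher of the pair in shTTC8 and INSIG1 in shScb. This ratio was chosen after the values were seen, and the order in shScb rests on the merged exon lengths. In CPM, without division by length, STARD4 was above INSIG1 in both groups.

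**Figure D2:**
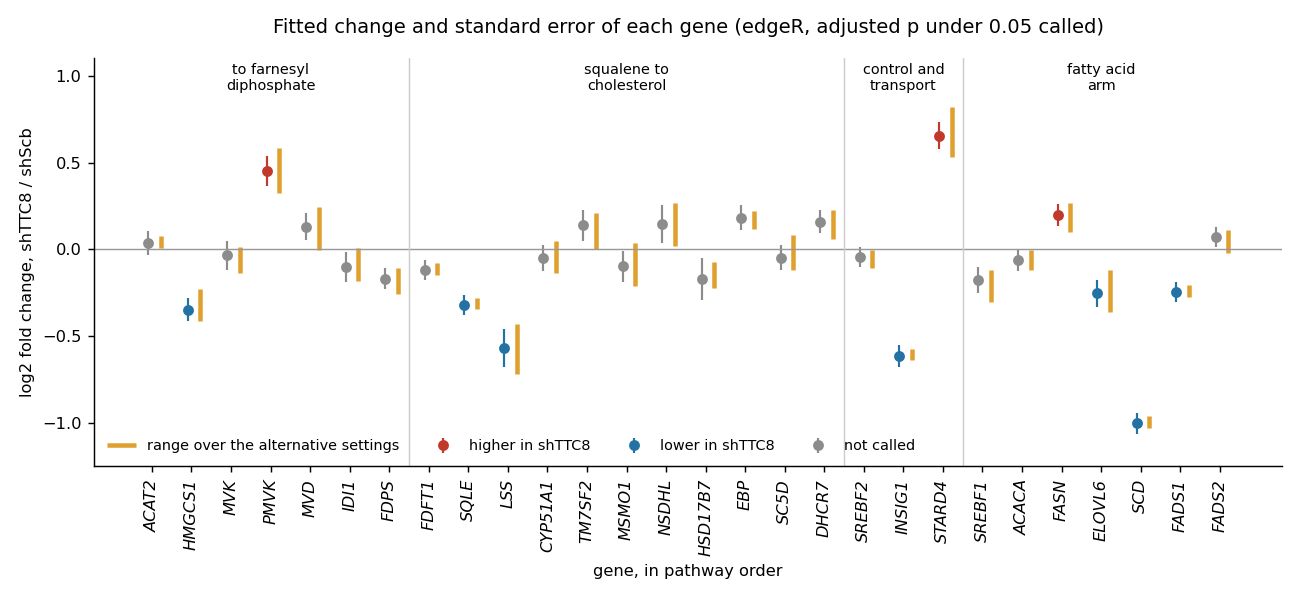
Log2 fold change of shTTC8 over shScb for each of the 28 genes with its standard error (edgeR, 2 libraries a group). Red points passed the test as higher, blue points as lower and grey points were not called; the orange bar beside each point is the range over 13 alternative fits. SCD at -1.002, INSIG1 at -0.61 and STARD4 at 0.65 keep bars far from 0, while the bars of FASN and ELOVL6 come within 0.12 of it.

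The fatty acid arm held 7 genes, of which FASN was higher, SCD, FADS1 and ELOVL6 were lower and 3 were not called (57.1% called, against 46.3% of protein-coding genes as well expressed). Without shTTC8 replicate 1 the arm gave 0 higher and 1 lower, and SCD was the gene still called. SCD encodes the stearoyl-CoA desaturase that makes monounsaturated fatty acids. It had 797 and 815 CPM in the shTTC8 libraries and 1645 and 1582 CPM in the shScb libraries. SCD averaged 806 ± 12.3 CPM in shTTC8 and 1614 ± 44.5 CPM in shScb (SD, n = 2 each). SCD (ENSG00000099194, chromosome 10, 100347124 to 100364834) fell by 1.002 on the log2 scale (SE 0.06, edgeR adjusted p = 2.65e-08), between -1.03 and -0.96 in 13 alternatives. It was the 1 gene of the 28 to change by 2-fold, and 5.29% of all tested genes were called with at least that change. Its pseudogene SCDP1 had 0.0197% of its counts. The paralog SCD5, of the wider list, was not called, at a mean of 32.6 CPM in shTTC8 and 35.1 CPM in shScb.

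FASN, the fatty acid synthase gene, had 580 and 532 CPM in shTTC8 and 471 and 497 CPM in shScb. Its rise of 0.20 on the log2 scale (SE 0.06, edgeR adjusted p = 0.0278) was lost in 4 of 13 alternatives: with no low-count filter, with the GC and length offset (0.10), without shScb replicate 1 (0.16) and without shTTC8 replicate 1 (0.13). Over all alternatives its adjusted p ran between 0.00133 and 0.378. ACACA, the acetyl-CoA carboxylase gene that supplies malonyl-CoA, had 99.02 and 91.7 CPM in shTTC8 and 102 and 97.1 CPM in shScb, and its groups overlapped. ELOVL6, which elongates saturated fatty acids upstream of SCD, had 64.0 and 69.0 CPM in shTTC8 and 85.4 and 73.1 CPM in shScb. Its fall of 0.25 (SE 0.08, edgeR adjusted p = 0.0257) was lost in 6 of 13 alternatives, among them the fits without shScb replicate 1 (-0.14) and without shTTC8 replicate 1 (-0.20). Its adjusted p over the alternatives ran between 7.37e-06 and 0.209. FASN and ELOVL6 both sat near the threshold.

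FADS1 and FADS2 encode desaturases of polyunsaturated fatty acid synthesis and lie next to each other on chromosome 11 on opposite strands. FADS1 had 246 and 248 CPM in shTTC8 and 293 and 294 CPM in shScb. FADS2 had 410 and 399 CPM in shTTC8 and 381 and 389 CPM in shScb. FADS1 fell by 0.25 on the log2 scale (SE 0.06, edgeR adjusted p = 0.00415), whereas FADS2 was not called at 0.07 (SE 0.06). The call of FADS1 was lost without shTTC8 replicate 1 and without shTTC8 replicate 2, at log2 fold changes of -0.24 and -0.25, and its adjusted p over all alternatives was at most 0.0706. The FADS1 and FADS2 genes share 490 exonic bases, and reads there cannot be assigned without strand. Per kilobase of exons FADS1 stood at 0.648 and 0.669 times FADS2 in shTTC8, against 0.827 and 0.813 times in shScb.

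SREBF1, which encodes the SREBP of fatty acid genes and an LXR target, had 51.2 and 48.1 CPM in shTTC8 and 53.9 and 58.5 CPM in shScb. Its groups did not overlap, and it was not called at -0.18 on the log2 scale (SE 0.08, edgeR adjusted p = 0.0871). It was called without shScb replicate 1 (-0.24) and with the GC and length offset (-0.30), and its adjusted p over the alternatives ran between 0.00126 and 0.458. SREBF1 also shares exonic positions with RAI1 on the opposite strand, which had 92.5% of its counts.

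The sum of the fatty acid arm was taken with and without SCD, a choice made after these values were seen. All 7 genes together had 2248 and 2202 CPM in shTTC8 and 3032 and 2991 CPM in shScb, a difference of -26.1%. Without SCD the other 6 genes had 1450 and 1388 CPM in shTTC8 and 1386 and 1409 CPM in shScb, which overlap (1.53%). The exact two-sided permutation test gave p = 0.667, against 0.333 for the full arm, the smallest that 2 against 2 libraries allow. It cannot show that the 6 were unchanged, since SCD was removed for its change in these same data. Called genes of opposite direction also offset each other in this sum, FASN as higher and FADS1 and ELOVL6 as lower. SCD made up 35.5% and 37.0% of the arm's CPM in shTTC8, against 54.3% and 52.9% in shScb. Per kilobase of exons SCD stood at 2.40 and 2.68 times FASN in shTTC8, against 6.10 and 5.56 times in shScb. As these are ratios within a library, they do not depend on how the libraries were scaled.

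**Figure D3:**
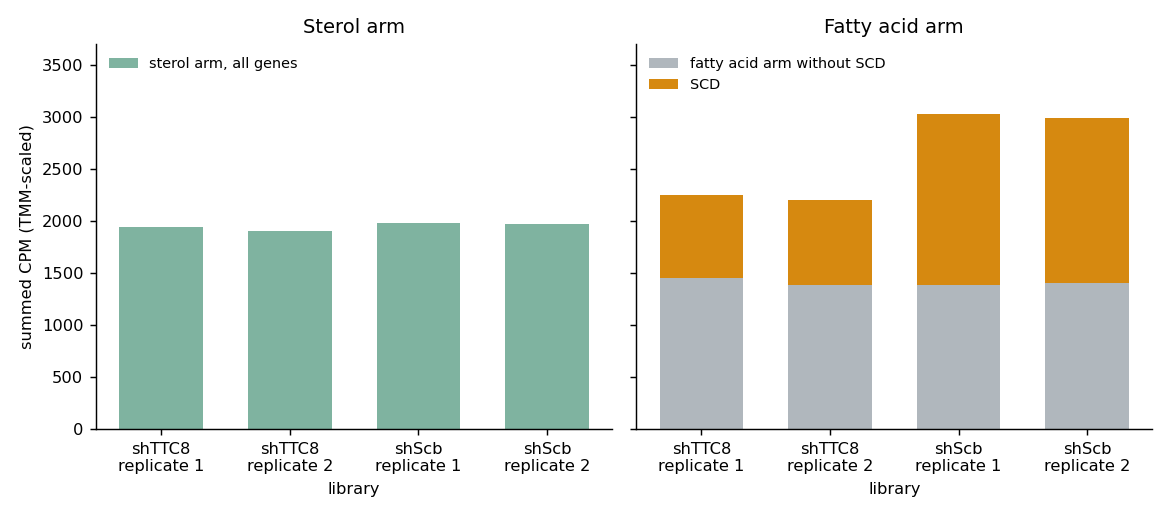
Summed CPM of the sterol arm (left) and of the fatty acid arm (right) in each library, with SCD stacked in orange on the other 6 fatty acid genes in grey. The sterol arm lies between 1908 and 1977 CPM and the 6 other fatty acid genes between 1386 and 1450 CPM. SCD takes 797 and 815 CPM in shTTC8 and 1645 and 1582 CPM in shScb.

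Per length, SCD was highest in both groups, at 150 CPM per kilobase of exons in shTTC8 and 301 in shScb, and HSD17B7 was lowest, at 2.10 in shTTC8 and 2.36 in shScb. SCD thus stood 71.7-fold over HSD17B7 in shTTC8 and 127-fold in shScb. FASN, SREBF2 and FDFT1 held places 2 to 4 in both groups, with FASN above SREBF2 in shTTC8 and below it in shScb, at 59.4, 53.4 and 41.4 CPM per kilobase in shTTC8 and 51.7, 54.96 and 44.9 in shScb. The early enzyme gene MVK and the ring-closing LSS were low, at 5.25 and 3.54 CPM per kilobase in shTTC8 and 5.38 and 5.25 in shScb. The largest moves in rank were those of STARD4, at place 8 of 28 in shTTC8 and place 16 in shScb, and INSIG1, at place 18 in shTTC8 and place 12 in shScb. Exon lengths were merged over all transcripts of a gene, so these levels understate genes that use short transcripts.

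**Figure D4:**
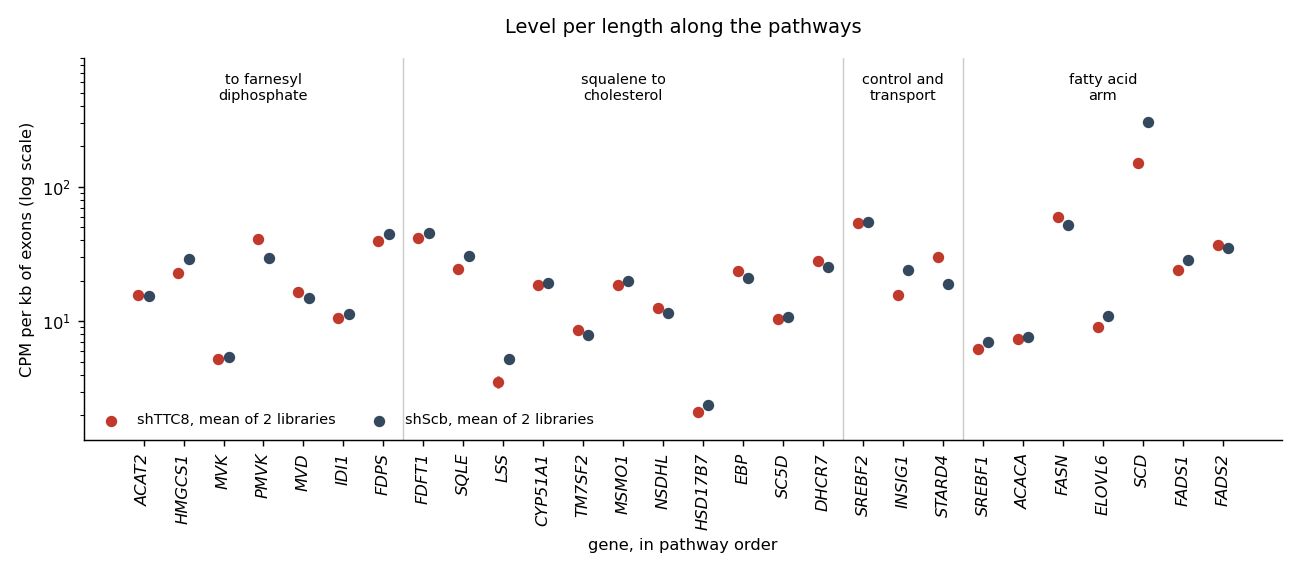
Mean CPM per kilobase of merged exons on a log axis for each of the 28 genes in pathway order, with shTTC8 in red at the left of each pair, shScb dark at the right, and bars for the range of the 2 libraries, mostly hidden by the points. SCD is the highest gene in both groups, at 150 in shTTC8 and 301 in shScb.

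The replicates of the 28 genes differed along GC content. The difference of shScb replicate 1 minus replicate 2 in log2 CPM correlated with the GC content of the longest transcript across the 28 genes at Pearson r = -0.858 (Spearman rho -0.858), and that of shTTC8 replicate 1 minus replicate 2 at 0.598 (rho 0.649). Genes are not independent replicates and share their libraries, so these are descriptions. Genes of low GC content, such as STARD4 (34.2%) and MSMO1 (38.1%), were higher in shScb replicate 1, and genes of high GC content, such as PMVK (59.5%) and LSS (58.3%), were higher in shScb replicate 2. The log2 fold change of shTTC8 over shScb correlated with GC content at r = 0.169 (rho 0.385) across the same genes. With the offset for both GC content and length, HMGCS1, SQLE, LSS, INSIG1, SCD and FADS1 were still called lower and PMVK and STARD4 higher. FDPS, FDFT1, SREBF2 and SREBF1 were added as lower, and FASN and ELOVL6 were no longer called.

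Around the pathways, 93 further genes in 6 lists were examined, of which 91 were tested and 26 were higher and 22 lower in shTTC8. This is 52.7% called, against 31.9% of all tested genes and 46.3% of protein-coding genes as well expressed as the 28, of which 21.9% were higher and 24.4% lower. Of 14 genes for SREBP processing and sterol sensing, 3 were higher and 5 lower, with a median log2 fold change of -0.005. Without shTTC8 replicate 1 the list gave 1 higher and 3 lower, without shTTC8 replicate 2 and without shScb replicate 2 it gave 2 higher, and without shScb replicate 1 it gave 4 higher and 4 lower. SP1, the factor that binds beside SREBPs, had 142 and 136 CPM in shTTC8 and 240 and 224 CPM in shScb, and fell by 0.74 (SE 0.06, edgeR adjusted p = 5.61e-07). RNF145, a ubiquitin ligase linked to sterol sensing, rose by 0.32 (SE 0.06), and ERLIN1, which binds SREBP complexes in the endoplasmic reticulum, fell by 0.35 (SE 0.07); ERLIN1 shares 37 exonic bases with CHUK, which had 60.6% of its counts. Of 9 genes of LXR and its targets, 5 were higher and 1 lower (66.7% called), with a median of 0.32. The 5 higher genes were NR1H2 (0.34) and NR1H3 (0.32), which encode the receptors themselves, and ABCG1, ABCA1 and LPCAT3. RXRA, RXRB and SMPDL3A were not called, at -0.17, -0.17 and -0.20. The cholesterol exporter gene ABCG1 had 11.9 and 10.4 CPM in shTTC8 and 4.69 and 3.68 CPM in shScb, and rose by 1.42 (SE 0.16, edgeR adjusted p = 1.08e-05). ABCA1, also an exporter gene, was low at 2.52 and 2.46 CPM in shTTC8 and 1.21 and 0.699 CPM in shScb, and rose by 1.39 (SE 0.31, edgeR adjusted p = 0.00282). LPCAT3, a phospholipid remodelling enzyme, rose by 0.40 (SE 0.09), but 65.6% of its exonic bases are shared with EMG1 on the opposite strand, which had 149% of its counts. The gene of the list that was lower was MYLIP, a ligase gene that LXR induces and whose product degrades lipoprotein receptors. It had 5.69 and 5.15 CPM in shTTC8 and 8.49 and 8.68 CPM in shScb, and fell by 0.66 (SE 0.15, edgeR adjusted p = 0.00322). LXR targets among the 28 genes, such as SCD and SREBF1, were not counted in this list. DESeq2 called 3 of the 9 higher and 1 lower, and without shScb replicate 1, and likewise without shTTC8 replicate 1, 3 were higher and 1 lower. With the GC and length offset 3 were higher and 2 lower.

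Fatty acid oxidation, the breakdown pathway, held 15 genes, of which 8 were higher and 2 lower, with a median log2 fold change of 0.24. CPT1A, which commits fatty acids to mitochondrial import, had 96.1 and 86.0 CPM in shTTC8 and 46.0 and 47.3 CPM in shScb. CPT1A rose by 0.96 on the log2 scale (SE 0.07, edgeR adjusted p = 1.93e-07), and both shTTC8 libraries were above both shScb libraries. SLC25A20, the carnitine carrier of the same import step, had 12.7 and 11.2 CPM in shTTC8 and 6.79 and 6.44 CPM in shScb, and rose by 0.85 (SE 0.13, edgeR adjusted p = 1.89e-04). ETFA, an electron carrier subunit of the same pathway, rose by 0.41 (SE 0.06). Without shTTC8 replicate 1 the list gave 7 higher and 0 lower, and without shTTC8 replicate 2 it gave 6 higher and 1 lower. The 8 of 15 genes called higher compare with 21.9% of protein-coding genes as well expressed as the 28.

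Of 21 tested genes of fatty acid supply, activation and elongation, 5 were higher and 8 lower, with a median of -0.12. Without shTTC8 replicate 1, and likewise without shTTC8 replicate 2, 4 were higher and 3 lower, and with library size as the only scaling 5 were higher and 5 lower. ACSL1 and ACSL3, which activate fatty acids by joining them to coenzyme A, fell by 0.65 (SE 0.07) and 0.42 (SE 0.06), and TECR, the last reductase of elongation, rose by 0.39 (SE 0.06). TECR shares exonic positions with DNAJB1 on the opposite strand, which had 49.2% of its counts. Of 12 genes of the nonsterol isoprenoid branch, 1 was higher and 2 lower (25% called, below the 31.9% of all tested genes; median -0.03). Without shTTC8 replicate 1 the list gave 1 lower. NUS1, a subunit of the dolichol-making prenyltransferase, fell by 0.55 (SE 0.09) and RCE1, a protease of prenylated proteins, rose by 0.42 (SE 0.08). RCE1 shares 381 exonic bases with C11orf80, which had 46.7% of its counts. FNTA, a subunit shared by prenyltransferases of proteins, fell by 0.23 (SE 0.06), a call that was lost without either shTTC8 library and with the GC and length offset (log2 fold change -0.06). Of 20 genes of sterol transport, esterification and lipid droplets, 4 were higher and 4 lower (40% called, between the 31.9% of all tested genes and the 46.3% of well-expressed protein-coding genes; median -0.05). OSBPL9, a lipid transfer protein gene, fell by 0.62 (SE 0.06) and SCARB1, the high-density lipoprotein receptor gene, by 0.36 (SE 0.06). OSBPL9 shares 163 exonic bases with NRDC, which had 202% of its counts. GRAMD1C, a membrane cholesterol carrier gene, was at most 0.309 CPM in shTTC8 and at least 1.29 CPM in shScb, and fell by 2.23 (SE 0.40).

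**Figure D5:**
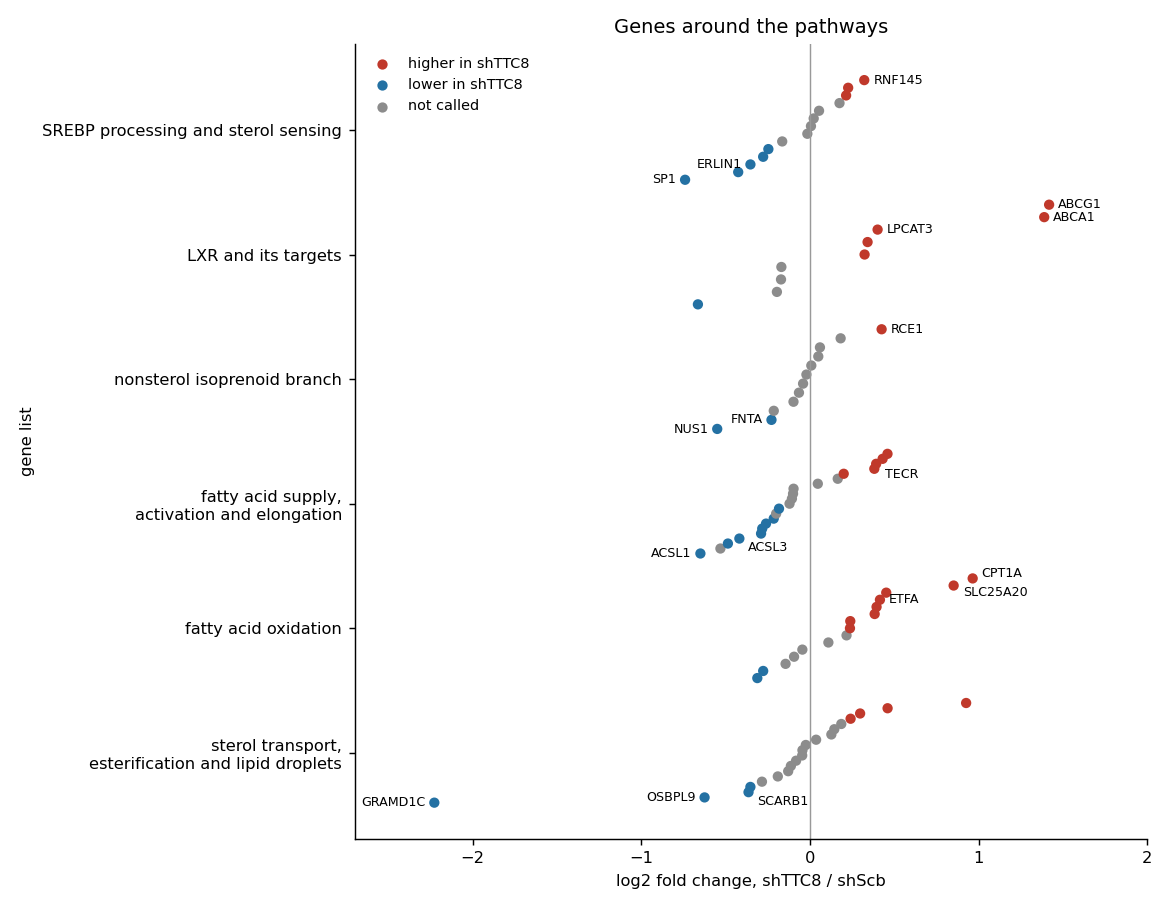
Log2 fold change of shTTC8 over shScb for the 91 tested genes of 6 lists around sterol and fatty acid synthesis, 1 point a gene, sorted within each list. Red points passed edgeR's test as higher, blue points as lower and grey points were not called. CPT1A at 0.96, ABCG1 at 1.42 and GRAMD1C at -2.23 stand far from the centre of their lists.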

How the data were processed

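RNA of SK-N-BE(2) cells was sequenced in 4 libraries, 2 with a TTC8 hairpin and 2 with a scramble hairpin, grouped by the sample titles. Per the labels' protocols, TRIzol was used to extract RNA, and libraries were prepared with the Illumina TruSeq RNA kit. This kit marks no strand. HISAT2 2.2.0 and hg38 are named, per the submitters' processing notes; the read counter and annotation are not given there. The deposited values are whole-number counts per Ensembl gene, not normalized by the authors, and all 4 columns were used. How reads shared by genes were counted is unknown.

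The members and lists were chosen with earlier results of these data known; other genes of both pathways were not analysed here. The genes named are the 28 members, TTC8 and, of each wider list, up to 3 called genes with the smallest p. SCD5 and the other genes of the LXR list were named after their values were seen. Symbols came from a gene name table or GENCODE 29, which gave positions, exons and GC content. In R 4.3.3, edgeR 4.0.16 filtered genes (filterByExpr), scaled libraries by TMM and ran the robust quasi-likelihood F test, two-sided, with Benjamini-Hochberg adjustment over 19610 genes at 0.05. Each standard error is the absolute log2 fold change divided by the root of F. The fit was tested on simulated data, where it called 28% of 1.25-fold, 48% of 1.5-fold, 76% of 2-fold and 92% of 4-fold changes. It called 0.165% of unchanged genes. A gene that was not called may thus still have changed by a small factor. Alternatives were other scalings and filters, DESeq2 1.42.0, limma-voom (limma 3.58.1), non-robust fitting, the replicate block, each library left out, an adjusted p of 0.01 and a lowess offset (span 0.3) for GC content and transcript length, which 93.4% of tested genes had. Replicates differed by more than counting noise alone (chi-square per degree of freedom 6.40 in shTTC8 and 11.4 in shScb). This cannot show whether they came from separate cultures or RNA samples. With 2 libraries a group, precision rests on the spread shared across genes. What edgeR names the biological coefficient of variation was 10.5%, a spread that may be technical.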

Additional observations from a re-analysis of the deposited data

How the results depend on the processing

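Of 364 recomputed log2 fold changes of the 28 genes, 337 stayed on their side of the threshold, 12 lost a call, 15 gained one and 0 reversed a called direction; the sign held in all 13 fits for 21 genes. With library size alone, 4 sterol genes were higher; with the GC and length offset, 7 were lower. The fatty acid gene called higher, FASN, was lost (0 higher) with no low-count filter, with the offset and at an adjusted p under 0.01. At that stricter threshold 1917 genes of the table were higher and 13 of the wider lists lower. Leaving out each library gave 2 to 5 sterol genes higher (5 without shScb replicate 2), 0 to 1 fatty acid genes higher and 1 to 3 lower, 1880 to 3395 genes of the table higher, and 11 to 23 of the wider lists lower, with the lowest counts without shTTC8 replicate 1 (that of fatty acid genes higher also without shScb replicate 1). In these fits 1 group has a lone library that is assumed to vary like the other. The cause of the changed calls was not tested, other than that a stricter threshold leaves fewer calls. Leaving out a library also added calls: without shScb replicate 2 more genes of the table, and more of the 28, were called than with all libraries. The deviations of same-numbered libraries correlated at 0.0317, so the numbers were not taken as pairs. With the replicate block 3 of the 28 genes were higher and 7 lower, and 3092 genes of the table were higher and 3343 lower. The lists around the pathways were put through the same alternatives after the data had been seen. LXR and its targets gave 3 to 5 genes higher.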
